A study of Mus musculus with 6 samples.

Results

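The genes described here build and run the motile cilium of airway cells. They were taken from a list of 39 symbols of axonemal dyneins, radial spokes, tektins, assembly factors and regulators, and every probe set that the platform annotation gives to exactly one of these symbols was used. The array carried 57 such probe sets for 37 genes, out of 18194 genes with a probe set of a single symbol. Dnai1 and Dnai2 had no probe set under those names because they are the newer names of Dnaic1 and Dnaic2. RNA came from homogenised whole lung of 6 FVB/N mice, 2 in each of 3 groups, and each mouse had its own Affymetrix expression array, so p-values measure the spread between individual mice. R899X high RVSP mice were heterozygous for SM22-rtTA and TetO7-BMPR2-R899X and had a strongly raised right ventricular systolic pressure (RVSP) at death. R899X normal RVSP mice carried the same transgenes and had a pressure near normal. Control mice carried SM22-rtTA alone. All 3 groups were fed doxycycline from an age of 4 weeks, over 9 weeks, and died at an age of 13 weeks. The series describes all mice as female, although the label of control 1 does not state its sex.

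SM22 is a smooth muscle promoter, and rtTA is a transactivator that switches on TetO7 genes when doxycycline is given, so the labels place the driver of the mutant receptor in smooth muscle. BMPR2 carries signals of bone morphogenetic proteins into the cell, and the R899X form of this receptor is cut short in its tail. Ciliated cells line the conducting airways and move mucus with beating cilia. The core of each such cilium, the axoneme, is a ring of microtubule doublets around a central pair. Dynein arms on the doublets make them slide, radial spokes and the central pair time the sliding, and tektins and other proteins stabilise the doublets. FOXJ1 and the RFX factors switch these genes on as a group, and RFX factors bind a palindromic sequence called the X-box. In a homogenate of whole lung, fewer ciliated cells and less RNA per ciliated cell cannot be told apart.

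Promoters of the members are shown because an X-box arm close to the start site was a sequence feature that many of them held and that the choice of members did not use. RefSeq promoters of mouse assembly GRCm38.p6, from 250 bases before to 50 bases after the start, were found for 32 of the 37 genes. The arm GTTGCC, or GGCAAC on the other strand, was present in at least 1 promoter of 17 of the 32 members (53.1%) and of 14.1% of all 27025 genes in the table. The forkhead motif GTAAACA, searched on both strands, was present in 1 of the 32 members, Ak7, and in 4.05% of all genes. A complete palindrome, GTTNCC followed by GGNAAC with 2 free bases between them, was found in 1 member, Ccdc151, and in 0.529% of all genes. With 1 free base between them it was found in 0 members and in 0.311% of all genes. A promoter with the complete palindrome can also hold the arm. Only these fixed letters were searched, so a palindrome with a different letter in an arm was not counted. The assembly is that of C57BL/6J mice, so the FVB/N sequence may differ. In 8 members a complete arm lay within the 60 bases before a start site. The share of all genes with an arm in that window was not counted, so this number has no background beside it. Those 60 bases are given 5′ to 3′ on the strand of the gene, with exact matches to the arm in capitals. An inexact second arm beside a match, as in Hydin, is left in small letters.
Dynlrb2, chr8:116504955-116505014, plus strand: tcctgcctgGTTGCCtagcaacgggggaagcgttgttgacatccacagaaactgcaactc
Dnaic2, chr11:114727359-114727418, plus strand: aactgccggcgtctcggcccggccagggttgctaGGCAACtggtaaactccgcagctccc
Hydin, chr8:110266917-110266976, plus strand: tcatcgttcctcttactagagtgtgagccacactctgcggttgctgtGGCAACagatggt
Spag6, chr2:18698962-18699021, plus strand: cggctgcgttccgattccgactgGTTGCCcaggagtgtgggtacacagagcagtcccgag
Drc1, chr5:30281333-30281392, plus strand: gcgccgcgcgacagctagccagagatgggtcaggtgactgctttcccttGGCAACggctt
Tekt1, chr11:72361883-72361942, minus strand: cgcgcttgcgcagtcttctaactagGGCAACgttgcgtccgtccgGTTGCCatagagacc
Tekt2, chr4:126325689-126325748, minus strand: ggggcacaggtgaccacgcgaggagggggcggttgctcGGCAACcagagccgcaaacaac
Ccdc113, chr8:95534040-95534099, plus strand: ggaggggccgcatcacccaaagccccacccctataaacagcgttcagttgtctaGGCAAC
Tekt1 held 2 arms in opposite orientation in this window. A match is a description of the letters and does not show that a factor binds there.

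Intensities are the authors' deposited values on a linear scale. Median intensity per array ranged from 128 to 141. Differences are given as log2(intensity + 16), the first-named group minus the one it is set against, with the standard error from limma after ±. The dimmest 40% of probe sets, with a mean below about 74.9 in intensity, took no part in the tests. Of the 57 member probe sets 37 passed this limit, and they stood for 33 of the 37 genes. Control 1 and R899X normal RVSP 1 stood apart from the other arrays, with a mean root-mean-square log2 distance of 0.496 and 0.492 to the rest, against at most 0.420 for the others. Their 3′ to 5′ ratios of the beta-actin control probe sets, a sign of RNA quality, were 1.89 and 1.64, against 1.27 to 1.45 on the other arrays. The same ratio of the Gapdh control probe sets did not mark these arrays alike. It was 0.973 in control 1, below control 2 at 1.03 but above all 4 R899X arrays. R899X normal RVSP 1 had the lowest ratio, 0.700, against 0.721 to 0.875 on the other R899X arrays. Of the 10 cardiac muscle markers 9 passed the limit, and all 9 were lowest on R899X high RVSP 2. The number of arrays limits the precision of every value. With 2 arrays against 2, the smallest two-sided p of an exact permutation test is 0.333, and with 4 against 2 it is 0.0667, so single members were read from the limma fit over all 27022 probe sets.

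Among the 3 pairs of mice of the same group, the axoneme genes as a set differed most between the 2 controls. Their mean deviation from each gene's own average was 0.13 and -0.09 in R899X lungs with high RVSP and 0.11 and 0.16 in R899X lungs with normal RVSP, against -0.40 in control 1 and 0.09 in control 2. Control 1 was the lowest of the 6 arrays for 26 of the 33 genes (78.8%), while it was lowest for 21.4% of all 12557 genes tested. Control 2 exceeded control 1 in 29 of the 33 genes, by a median log2 difference of 0.54, against 48.2% of all genes with a median of -0.02. R899X high RVSP 1 exceeded R899X high RVSP 2 in 26 of 33, by a median of 0.23, against 48.6% of all genes with a median of -0.008. R899X normal RVSP 2 exceeded R899X normal RVSP 1 in 18 of 33, by a median of 0.06, against 41.9% of all genes with a median of -0.06. Each gene is read here by its brightest probe set that passed the limit.

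**Figure D1:**
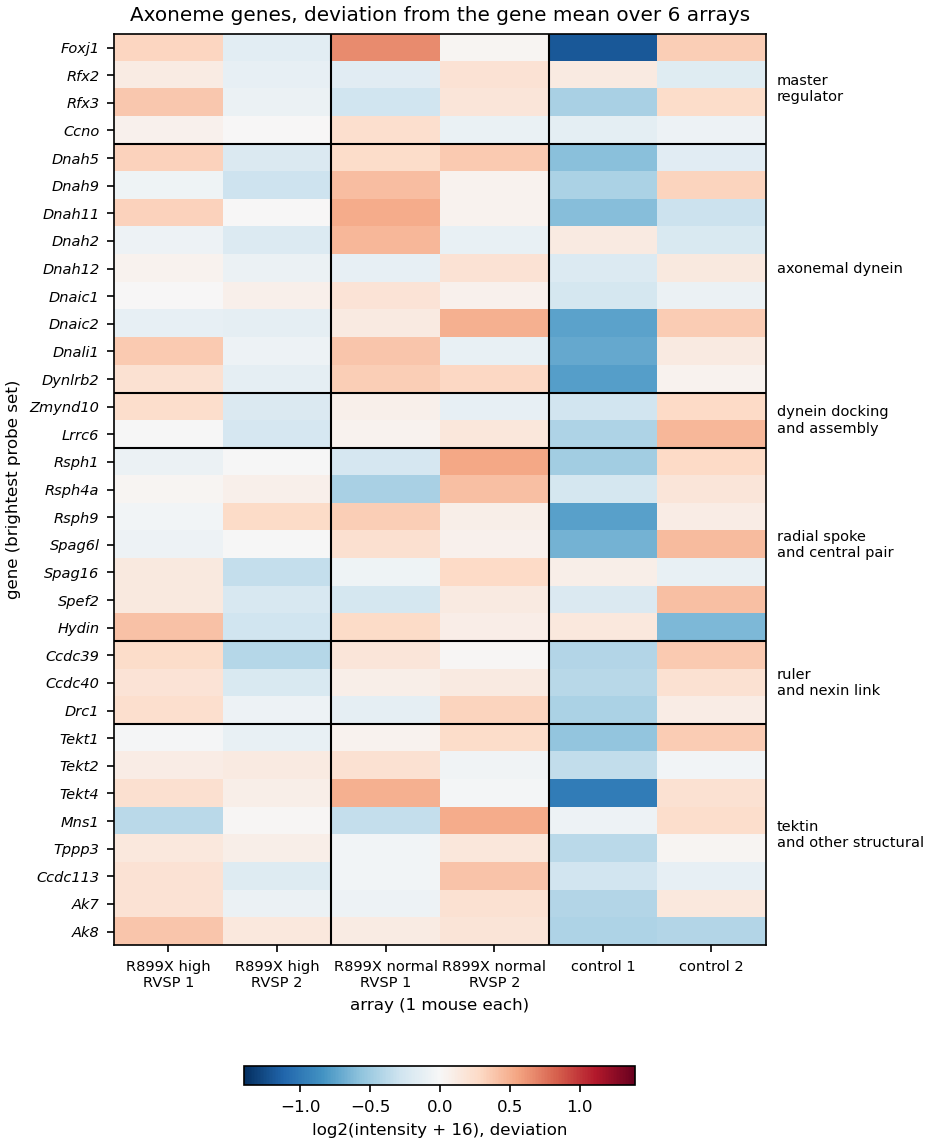
Deviation of log2(intensity + 16) from the gene's mean over 6 arrays for the 33 axoneme genes that passed the low-value limit (rows, grouped by role) on each array (columns, 1 mouse each), with red above and blue below the mean. Control 1 is the lowest array for 26 of the 33 genes, and control 2 lies within the range of the R899X arrays for 20 of them.

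Control 1 lay below all 4 R899X arrays for 26 of the 33 genes, above all of them for 0 and within their range for 7. Among all genes tested, 24% lay below, 24.9% above and 51.1% within. Control 2 lay below all 4 R899X arrays for 6 of the 33 genes, above all of them for 7 and within their range for 20. For control 2 the shares among all genes were 21.2% below, 20.1% above and 58.8% within. The members had a median standard deviation over the 6 arrays of 0.32 on the log2 scale, against 0.19 for all genes tested. Control 1, low for 26 of the 33, is part of that spread. The members were not matched with the other genes for intensity, so their spread beside genes of like brightness was not measured.

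The regulators come first. Foxj1, the transcription factor that commits a cell to motile cilia, had intensities of 478 and 344 in R899X lungs with high RVSP, 618 and 390.3 in R899X lungs with normal RVSP, and 160.4 and 492 in the controls. Control 1 alone was low, and control 2 lay above 3 of the 4 R899X arrays. The difference from control was 0.50 ± 0.46 for high RVSP (adjusted p = 0.912) and 0.76 ± 0.46 for normal RVSP (adjusted p = 0.987). Among the 33 members, Foxj1 had the widest gap between the controls, with control 2 at 3.07 times the intensity of control 1.

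Rfx3, which binds the X-box of ciliary genes, had intensities of 562 and 405 in R899X lungs with high RVSP, 349 and 485 in R899X lungs with normal RVSP, and 308 and 515 in the controls by its brightest probe set. A dimmer Rfx3 probe set ran the other way, with control 1 the highest at 113 and the other arrays between 57.6 and 94.6. Rfx2 differed from control by 0.03 ± 0.27 in high RVSP and 0.04 ± 0.27 in normal RVSP, while 2 of its other probe sets did not pass the low-value limit. A further Rfx2 probe set read 117 and 90.2 in R899X lungs with high RVSP, 156 and 117 in R899X lungs with normal RVSP, and 138 and 139 in the controls. It lay below both controls with high RVSP, by -0.38 ± 0.27 (adjusted p = 0.885). Ccno, an atypical cyclin needed to multiply the basal bodies of multiciliated cells, lay between 107 and 143 on all arrays.

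Of the outer-arm dynein heavy chains, the motors that set beat frequency, Dnah5, Dnah9 and Dnah11 all read lowest in control 1. Dnah5 had intensities of 202 and 136 in R899X lungs with high RVSP, 193 and 209.8 in R899X lungs with normal RVSP, and 101 and 141 in the controls. Its normal RVSP arrays lay above both controls, and its high RVSP arrays overlapped them. The difference was 0.68 ± 0.28 for normal RVSP (adjusted p = 0.987) and 0.43 ± 0.28 for high RVSP (adjusted p = 0.884).

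Dnah11 had intensities of 209 and 166 in R899X lungs with high RVSP, 244 and 171 in R899X lungs with normal RVSP, and 104 and 130.4 in the controls. All 4 R899X arrays lay above both controls. The difference of all R899X mice from control was 0.67 ± 0.24, with an adjusted p = 0.832 over all probe sets, so it did not pass. For Dnah9, another outer-arm heavy chain, the R899X arrays overlapped the controls. It had intensities of 228 and 193 in R899X lungs with high RVSP, 329 and 249 in R899X lungs with normal RVSP, and 172 and 301 in the controls. High RVSP lay below normal RVSP on both arrays for Dnah9, with a difference of -0.42 ± 0.30 (adjusted p = 1).

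The inner-arm heavy chains are Dnah2 and Dnah12. Dnah2 had intensities of 155 and 141 in R899X lungs with high RVSP, 232 and 152 in R899X lungs with normal RVSP, and 180.3 and 139 in the controls. The difference of high RVSP from normal RVSP was -0.31 ± 0.28 for Dnah2 (adjusted p = 1), with R899X normal RVSP 1 as its high array. Dnah12 spread less, between 152 and 204 on all arrays, with a difference of -0.06 ± 0.25. The second probe sets of Dnah2 and Dnah9 did not pass the low-value limit.

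Dynlrb2, a roadblock-type dynein light chain, had intensities of 1499 and 1177 in R899X lungs with high RVSP, 1639 and 1579.6 in R899X lungs with normal RVSP, and 749.9 and 1333 in the controls. Normal RVSP lay above both controls, while R899X high RVSP 2 lay below control 2. The difference was 0.68 ± 0.27 for normal RVSP (adjusted p = 0.987) and 0.40 ± 0.27 for high RVSP (adjusted p = 0.882). The outer-arm intermediate chain Dnaic2 had intensities of 248 and 245 in R899X lungs with high RVSP, 295 and 387 in R899X lungs with normal RVSP, and 154 and 350.0 in the controls. Its promoter window shown above holds an X-box arm, as does that of Dynlrb2. The high RVSP arrays of Dnaic2 lay below the normal RVSP arrays (-0.43 ± 0.35, adjusted p = 1) and between the controls.

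Dnaic1, the partner of Dnaic2 in the outer arm, was read by 2 probe sets that passed, and both had all R899X arrays above both controls, with differences of all R899X mice from control of 0.24 ± 0.22 and 0.15 ± 0.23. The brightest probe sets of Dnaic1 and Dnaic2 carry the suffix of designs whose probes can match other transcripts. Dnali1, a light chain of the inner arm, also had 2 probe sets that passed. One of them read 223 and 163 in R899X lungs with high RVSP, 167 and 208 in R899X lungs with normal RVSP, and 135 and 149.6 in the controls, with no overlap. The brighter Dnali1 probe set read 338 in control 2, above R899X high RVSP 2 at 293 and R899X normal RVSP 2 at 286, so it overlapped.

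**Figure D2:**
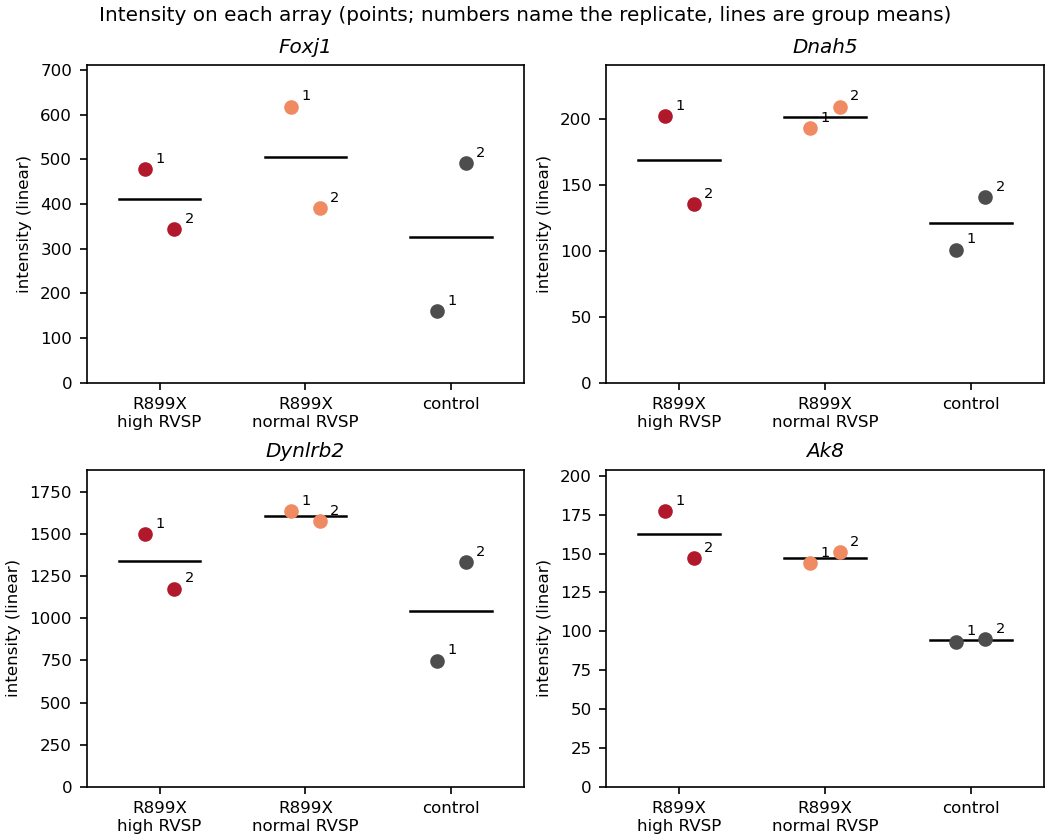
Intensity on a linear scale (vertical axes) of Foxj1, Dnah5, Dynlrb2 and Ak8 on each array, by group, with points for single mice, numbers for the replicate and lines for the mean of 2. Foxj1 and Dynlrb2 are low in control 1 alone, and Ak8 is low in both controls at 93.4 and 94.9.

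Docking and assembly factors were the group least well read. Zmynd10 and Lrrc6, which fold dynein arms in the cytoplasm before transport, passed the limit. Zmynd10 read 177 and 125 in R899X lungs with high RVSP, 155 and 134 in R899X lungs with normal RVSP, and 119.7 and 181 in the controls. Lrrc6 read 109.9 and 91.7 in R899X lungs with high RVSP, 115 and 126 in R899X lungs with normal RVSP, and 78.2 and 159 in the controls. In both, every R899X array lay between control 1 and control 2. Ccdc114 and Ccdc151, parts of the complex that docks outer arms on the doublet, did not pass the limit. The Ccdc114 probe set read 57.7 or less on all arrays, and the brightest of Ccdc151 between 19.3 and 109.

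Radial spoke heads were read by Rsph1, Rsph4a and Rsph9. Rsph9 had intensities of 155 and 194 in R899X lungs with high RVSP, 206 and 169 in R899X lungs with normal RVSP, and 87.4 and 172 in the controls. Control 1 was the low array, and control 2 lay within the range of the R899X arrays. The difference from control was 0.45 ± 0.33 for high RVSP (adjusted p = 0.889) and 0.54 ± 0.33 for normal RVSP (adjusted p = 0.987). Rsph1 and Rsph4a read highest in R899X normal RVSP 2, at 616 and 410.2, and Rsph4a was lowest in R899X normal RVSP 1, at 217, so these spoke heads split the normal RVSP pair.

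Central pair genes were mixed. Spag6l had intensities of 133 and 141 in R899X lungs with high RVSP, 167 and 148 in R899X lungs with normal RVSP, and 82.7 and 198 in the controls, so the controls were its lowest and its highest arrays. Spag6, a close copy of Spag6l, and Spag17 did not pass the limit, with at most 13.1 for Spag6 and at most 104 for the brightest Spag17 probe set. Hydin, a large protein of a central pair projection, read 227 and 136 in R899X lungs with high RVSP, 204 and 179.7 in R899X lungs with normal RVSP, and 188 and 102 in the controls. Hydin was thus lowest in control 2, the reverse of Foxj1, and without control 1 its difference from control was 0.70 for high RVSP and 0.81 for normal RVSP. Spag16 differed by -0.08 ± 0.26 for high RVSP and 0.12 ± 0.26 for normal RVSP, and Spef2 by -0.15 ± 0.33 and -0.17 ± 0.33.

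The doublet ruler Ccdc39 and Ccdc40, a pair of coiled-coil proteins that space the dynein arms, and Drc1, of the nexin-dynein regulatory complex, had control 1 as the lowest array. For Ccdc40 the intensities were 247 and 184 in R899X lungs with high RVSP, 228 and 236 in R899X lungs with normal RVSP, and 161 and 251 in the controls. Control 2 was the highest array for Ccdc39 and Ccdc40. Drc1 differed from control by 0.25 ± 0.28 for high RVSP and 0.26 ± 0.28 for normal RVSP.

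Among the tektins, filament proteins inside the doublet, Tekt4 had intensities of 207 and 185 in R899X lungs with high RVSP, 252 and 170.1 in R899X lungs with normal RVSP, and 80.3 and 204 in the controls. Tekt1 followed with 202 and 189 in R899X lungs with high RVSP, 211 and 247 in R899X lungs with normal RVSP, and 135 and 267 in the controls. In both, control 1 was the lowest array and control 2 was not low. Tekt2 lay between 198 and 241 in the R899X mice and at 159 and 200.1 in the controls. Mns1, a coiled-coil protein of the doublet, was highest in R899X normal RVSP 2 at 251 and lowest in R899X high RVSP 1 at 127.

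Tppp3, a tubulin-binding protein abundant in ciliated cells, had intensities of 5532 and 5309 in R899X lungs with high RVSP, 4884 and 5588 in R899X lungs with normal RVSP, and 3863 and 5084 in the controls. High RVSP lay above both controls for Tppp3, while the normal RVSP arrays overlapped control 2. Its difference was 0.29 ± 0.17 for high RVSP (adjusted p = 0.872) and 0.24 ± 0.17 for normal RVSP (adjusted p = 0.987). Ak8, an adenylate kinase of the axoneme, had intensities of 177 and 147 in R899X lungs with high RVSP, 144 and 151 in R899X lungs with normal RVSP, and 93.4 and 94.9 in the controls. The 2 control values were close together and not far above the low-value limit of about 74.9, and all R899X arrays lay above them. For Ak8 the difference from control was 0.69 ± 0.25 for high RVSP (adjusted p = 0.857), 0.57 ± 0.25 for normal RVSP (adjusted p = 0.987) and 0.63 ± 0.22 for all R899X mice (adjusted p = 0.832), and it did not pass in any of them. Ak7, a related kinase, was lowest in control 1 at 523 and read 773 in control 2, within the R899X range of 658 to 812. Ccdc113, a coiled-coil ciliary protein, read 189 and 142 in R899X lungs with high RVSP, 158 and 219 in R899X lungs with normal RVSP, and 132 and 149 in the controls.

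R899X normal RVSP against control sets mice with the mutation and a pressure near normal beside mice that carry SM22-rtTA alone. Of the 33 axoneme genes 31 had a higher mean in the normal RVSP mice, with a median difference of 0.25, against 53.7% of all genes tested and a median of 0.02. The 2 genes with a lower mean were Spef2 and Zmynd10. Dynein genes had a median of 0.43, with 9 of 9 higher, and tektins and other structural genes a median of 0.26, with 8 of 8 higher. Radial spoke and central pair genes had a median of 0.25, with 6 of 7 higher, and ruler and nexin link genes 0.19, with 3 of 3. Regulators had a median of 0.11, with 4 of 4 higher, and docking and assembly genes 0.03, with 1 of 2. Adjusted over all probe sets, 0 of 37 member probe sets passed in limma, as did 0% of all probe sets. At an unadjusted p under 0.05 there were 3 of the 33 genes, Dnah11, Dynlrb2 and Dnah5 (9.09%), all higher, against 2.44% of all genes in either direction and 1.42% in that direction. Arrays of the groups did not overlap, with normal RVSP above control, for 6 of the 33 (18.2%), against 15% of all genes, which is near that background. In the other direction it was 0 of 33, against 12%. Without control 1, 17 of the 33 had a higher mean and the median was 5.03e-05, while without control 2 the median was 0.49. The beta-actin ratio as a term in the fit gave a median of 0.12 with 22 of 33 higher.

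For R899X high RVSP against control, the mutation with raised pressure, 26 of the 33 genes had a higher mean and 7 a lower one. The median difference was 0.14, against -0.02 for all genes, of which 46.1% were higher. Regulators, dyneins and structural genes had medians of 0.19, 0.20 and 0.25. The other role groups were nearer to no difference. Their medians were 0.08 for radial spoke and central pair genes, 0.08 for ruler and nexin link genes, and -0.06 for docking and assembly genes. In limma 0 of 37 member probe sets passed, against 0% of all, and at an unadjusted p under 0.05 there was 1 gene, Ak8 (3.03%), against 2.35% of all genes in either direction and 1.11% higher. For 6 of the 33 (18.2%) the high RVSP arrays lay above both controls without overlap, against 14.3% of all genes, and for 0 below, against 18.3%. Without control 1 the median was -0.06 and 14 of 33 were higher, and without control 2 the median was 0.44. With the beta-actin ratio added to the fit it was -0.07. Both this comparison and the one before it use the same control arrays.

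**Figure D3:**
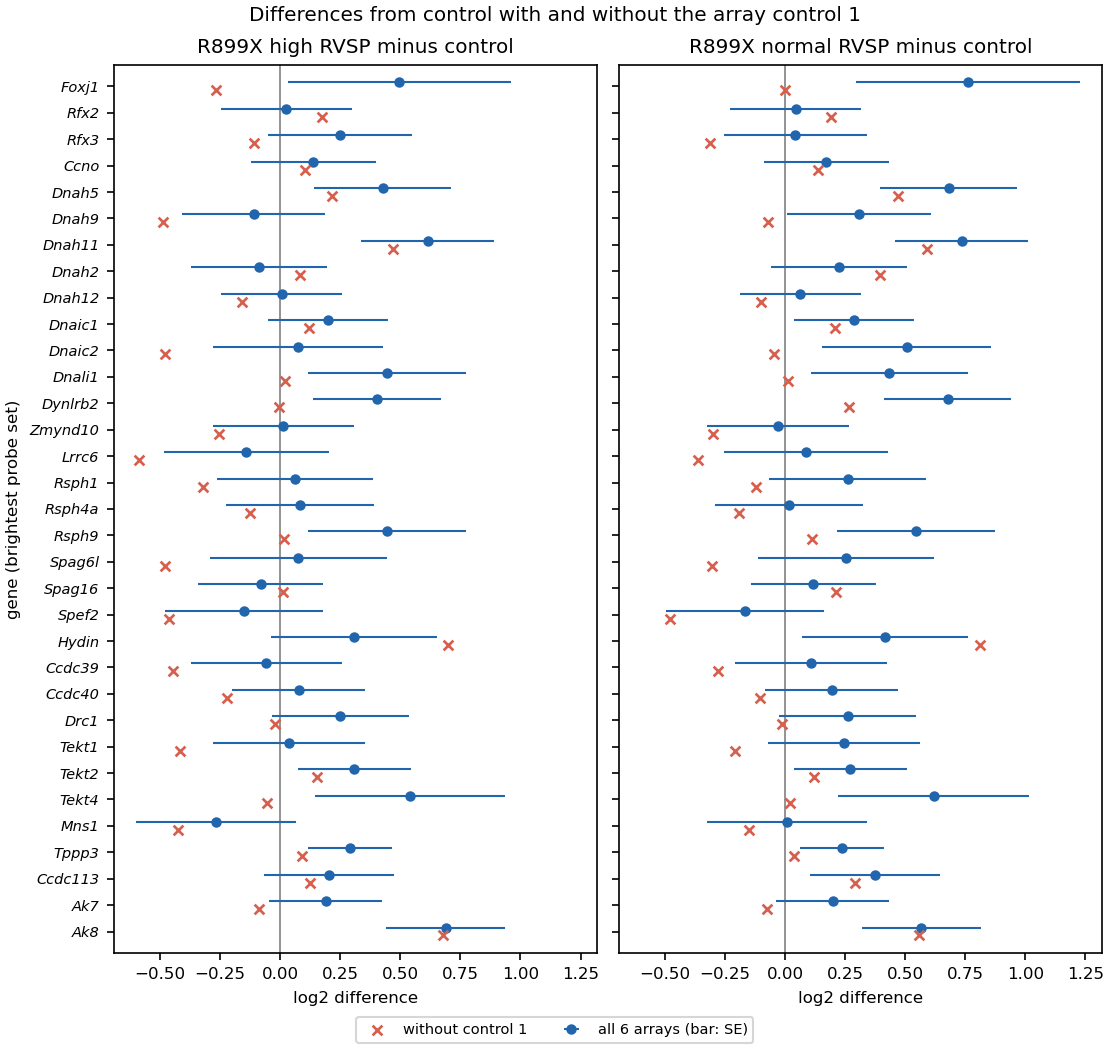
Log2 difference from control for each of the 33 axoneme genes (rows), in R899X high RVSP (left) and R899X normal RVSP (right), from all 6 arrays (circles, bars are standard errors) and without control 1 (crosses). Leaving out control 1 moves most genes to the left. Hydin moves to the right, to 0.70 and 0.81, and Dnah11, Dnah5 and Ak8 are among the genes that stay above 0 on both sides.

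Mice that share the transgenes and differ in pressure gave lower means in R899X high RVSP than in R899X normal RVSP for 25 of the 33 genes. The median difference was -0.11, against -0.03 for all genes, of which 42.5% were higher. Dyneins had a median of -0.26 with 8 of 9 lower, and the medians of the other role groups lay between -0.12 and -0.03. Of 37 member probe sets 0 passed in limma, against 0% of all, and 0 of the 33 genes had an unadjusted p under 0.05, against 1.79% of all genes. Without overlap, 6 of the 33 (18.2%) were lower in high RVSP, against 19.8% of all genes, and 0 were higher, against 11.5%. Without R899X high RVSP 2 the median was 0.02 and 19 of the 33 genes were higher.

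With both R899X groups together set against control, 29 of the 33 genes had a higher mean, with a median difference of 0.16. Of all genes 49.9% were higher, with a median within 0.01 of 0. Again 0 of 37 member probe sets passed in limma, against 0% of all, and Ak8, Dnah11 and Dynlrb2 had an unadjusted p under 0.05, against 2.87% of all genes in either direction and 1.57% higher. All 4 R899X arrays lay above both controls for 3 of 33 genes, Ak8, Dnah11 and Dnaic1 (9.09%), against 6.24% of all genes, and below both for 0, against 6.24%. The control readings of Ak8, Dnah11 and Dnaic1 were dim, between 93.4 and 130.4, where the low-value limit is about 74.9. Without control 1 the median was -0.02 with 15 of 33 genes higher. For Ak8 the adjusted p in that comparison ranged from 0.449 to 0.999 over the alternative settings.

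Other genes of the motile cilium, 71 of the 87 on the array that passed the limit, were spread less widely. Their mean deviation was 0.04 and -0.13 in R899X lungs with high RVSP, 0.13 and 0.10 in R899X lungs with normal RVSP, and -0.18 and 0.04 in the controls. Control 1 was lowest for 27 of 71 and R899X high RVSP 2 for 21 of 71. In R899X normal RVSP against control 57 of 71 had a higher mean (median 0.22), and arrays did not overlap for 26 in that direction (36.6%, against 15% of all genes) and for 4 in the other (5.63%, against 12%). In R899X high RVSP against control 40 of 71 had a higher mean (median 0.04), and arrays did not overlap for 9 that were higher (12.7%, against 14.3%) and 14 that were lower (19.7%, against 18.3%). In R899X high RVSP against R899X normal RVSP 61 of 71 had a lower mean (median -0.17), and arrays did not overlap for 23 in that direction (32.4%, against 19.8% of all genes) and for 1 in the other (1.41%, against 11.5%). In each of the 4 comparisons 0 of these genes passed in limma.

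Drc3, a subunit of the nexin-dynein regulatory complex, had intensities of 475 and 395 in R899X lungs with high RVSP, 528 and 526 in R899X lungs with normal RVSP, and 289 and 348 in the controls. All R899X arrays lay above both controls, with a difference of 0.57 ± 0.17 (adjusted p = 0.832). Mlf1, a gene expressed in ciliated cells, had intensities of 379 and 394 in R899X lungs with high RVSP, 511 and 509 in R899X lungs with normal RVSP, and 278 and 378 in the controls. The normal RVSP pair stood alone above the other 4 arrays for Mlf1, with 0.63 ± 0.21 against control and, for high RVSP against normal RVSP, -0.39 ± 0.21 (adjusted p = 0.987 and 1). Capsl, a calcium-binding protein gene, shared that pattern, with 326 and 370 in the normal RVSP pair and at most 259 elsewhere. Cfap126, a ciliary basal body protein gene, and Spa17, a gene of sperm and ciliary tails, had all R899X arrays above both controls, with differences of 0.39 ± 0.15 and 0.43 ± 0.18 (adjusted p = 0.832 for both). Trp73, a transcription factor that acts upstream of Foxj1, read 48.7 and 76.1 in R899X lungs with high RVSP and 120.1 and 82.9 in the controls, a difference of -0.59 ± 0.33 (adjusted p = 0.872). The normal RVSP arrays of Trp73, at 68.1 and 84.3, overlapped both of these groups, and its readings lay around the low-value limit. Cdhr4, a cadherin-related gene, read 357 and 319 in R899X lungs with high RVSP and 523 and 504 in R899X lungs with normal RVSP, a difference of -0.58 ± 0.21 (adjusted p = 1). Genes of intraflagellar transport and the primary cilium, which most cell types use, had smaller deviations. Their mean deviation lay between -0.08 in control 1 and 0.07 in R899X normal RVSP 1, control 1 was lowest for 10 of 39, and 0 of 39 passed in limma in each of the 4 comparisons. Their arrays did not overlap for 12 of 39 that were higher in R899X normal RVSP than in control (30.8%, against 15% of all genes) and for 15 of 39 that were lower in R899X high RVSP than in R899X normal RVSP (38.5%, against 19.8%). Ttc30b, a subunit of the transport particle, had 1188 and 1422 in R899X lungs with high RVSP, 1228 and 1470 in R899X lungs with normal RVSP, and 1041 and 1035 in the controls, which gave 0.34 ± 0.15 for all R899X mice (adjusted p = 0.832). Ift27, another subunit, read 388 and 249 in R899X lungs with high RVSP against 439.8 and 496 in R899X lungs with normal RVSP, a difference of -0.56 ± 0.25 (adjusted p = 1).

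**Figure D4:**
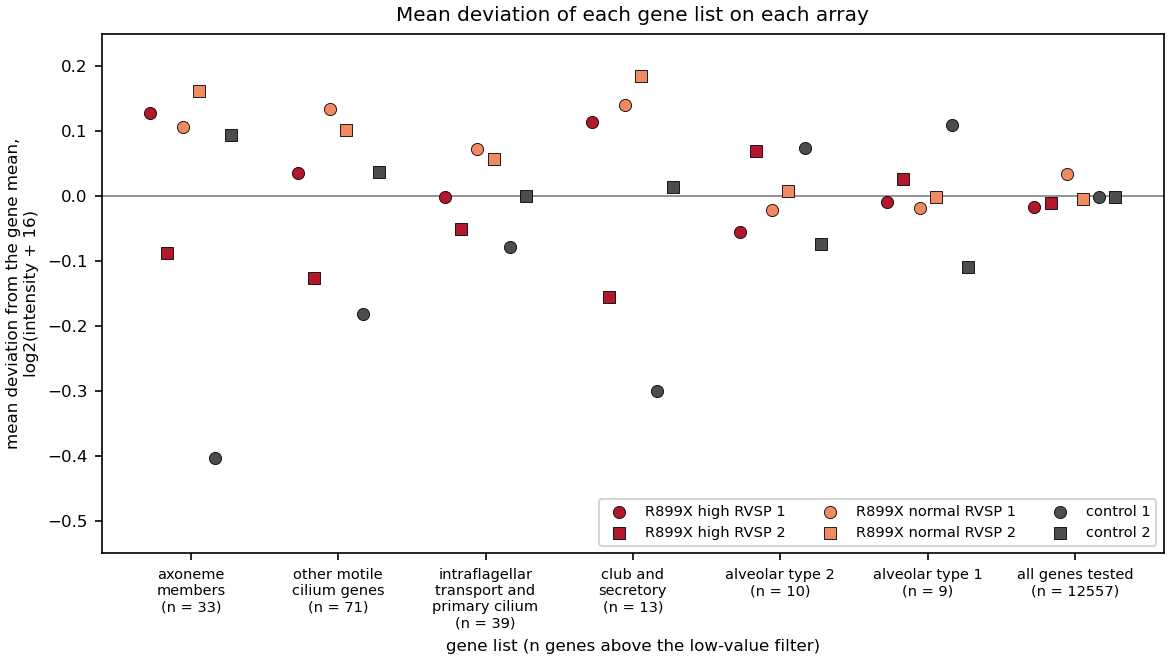
Mean deviation of log2(intensity + 16) from each gene's mean (vertical axis) for 7 gene sets (horizontal axis) on each of the 6 arrays (points). The axoneme genes in control 1 stand at -0.40, the club and secretory genes there at a mean of -0.30 but a median of -0.19, and the alveolar lists and all genes stay within 0.11 of 0 on all arrays.

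Markers of neighbouring epithelial cells were read beside the axoneme genes. The club and secretory list (13 of 15 genes passed) had a mean deviation of 0.11 and -0.15 in R899X lungs with high RVSP, 0.14 and 0.19 in R899X lungs with normal RVSP, and -0.30 and 0.01 in the controls. The median deviations were smaller on the low arrays, at -0.07 in R899X high RVSP 2 and -0.19 in control 1. Control 1 was the lowest array for 6 of the 13 genes and the highest for 3 of them. In the comparisons with control the largest moderated statistic of the list belonged to Scgb3a2 or Gabrp. Scgb3a2 read 18202 to 21603 in the R899X lungs and 17106 and 15198 in the controls. Gabrp read 659 to 1201 in the R899X lungs and 607 and 729 in the controls. For all R899X mice against control the differences were 0.32 ± 0.13 and 0.55 ± 0.23 (adjusted p = 0.832 for both). Within the list Scgb3a1, a secretoglobin of larger airways, had intensities of 629 and 164 in R899X lungs with high RVSP, 513 and 417 in R899X lungs with normal RVSP, and 133 and 339 in the controls. Muc5b, an airway mucin, read 198 and 38.7 in R899X lungs with high RVSP, 147 and 189 in R899X lungs with normal RVSP, and 15.6 and 157 in the controls. Both were lowest in control 1 and next lowest in R899X high RVSP 2, and both were named after their values were seen.

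Scgb1a1, the main club cell secretoglobin, ran the other way, with 38527 and 36356 in R899X lungs with high RVSP, 42184 and 39067 in R899X lungs with normal RVSP, and 51443 and 33258 in the controls. The summed intensity of the club and secretory list was 142655 and 135050.0 in R899X lungs with high RVSP, 156119 and 143771 in R899X lungs with normal RVSP, and 154460.0 and 129502 in the controls. Scgb1a1 was the brightest marker in this sum on every array, so the sum says little about the dim markers. Bpifa1, at 2.08 to 30.0, and Bpifb1 did not pass the limit. Alveolar type 2 markers (10 of 10 passed) and alveolar type 1 markers (9 of 9 passed) had mean deviations of 0.07 and 0.11 in control 1 and of -0.07 and -0.11 in control 2. The alveolar lists therefore did not share the low reading of the axoneme genes in control 1. The part of airway content in the differences between groups was not tested.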

How the data were processed

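The authors deposited 45101 intensities per array on a linear scale. Per the labels' protocols, mice received heparin, the right lung was flushed with buffer, and RNA was purified on columns. How intensities were computed from the scans is not stated in the sources at hand. The arrays share a scale, with a 2% trimmed mean of 500.0 on each.

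Symbols came from the platform annotation: 34958 probe sets have 1 symbol, 932 several and 9211 none listed. All 37 member genes matched a RefSeq table of GRCm38.p6 by gene identifier. In limma 3.58.1 under R 4.3.3, log2(intensity + 16) of the deposited values was fitted with a mean for each group to 27022 probe sets (64 control and 18015 dim probe sets left out), with an intensity trend and with 3 residual and 5.06 prior degrees of freedom. P-values are two-sided and were adjusted by Benjamini-Hochberg over all probe sets, with 0.05 as the threshold. The procedure was tested on simulated data. A gene was read by its brightest probe set. Members and lists were chosen with earlier results of these data known. The named members are Foxj1, Dnah5, Dynlrb2, Tppp3 and, per comparison, the 4 with the largest moderated statistic, and every other member is named at least once. Of the other gene lists, genes were taken from the 4 a comparison with the largest moderated statistic, but not all of these are named. Scgb1a1, Scgb3a1 and Muc5b were chosen after their values were seen. Replicates follow accession order only, and the labels name no batch. Alternatives covered the pseudocount, normalization, filter, trend, array weights, arrays left out and the beta-actin ratio. Depth does not apply to arrays, and their number limits precision.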

Additional observations from a re-analysis of the deposited data

How the results depend on the processing

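With 1 array left out at a time, the median difference of the axoneme genes ranged from 5.03e-05 to 0.49 for R899X normal RVSP against control, from -0.056 to 0.44 for R899X high RVSP against control, from -0.17 to 0.020 for R899X high RVSP against R899X normal RVSP and from -0.017 to 0.46 for all R899X mice against control. The number of axoneme genes with a higher mean ranged in that order from 17 to 32, from 14 to 30, from 4 to 19 and from 15 to 31 of 33. The low end came without control 1 in the 3 comparisons with control, and without R899X high RVSP 1 in the other. Without both control 1 and R899X normal RVSP 1 the median was -0.056 for high RVSP against control, with 14 genes higher, -0.0088 for all R899X mice, with 15 higher, and 0.07 for normal RVSP against control, with 18 higher. With the beta-actin ratio added to the fit the median for high RVSP against control was -0.069, with 15 higher. That covariate left 17 genes higher for all R899X mice and 4 for high RVSP against normal RVSP, where quantile normalization left 4 and centring each array on its median 2, against 8 as reported. With the lower 60% of probe sets left out 11 axoneme genes remained, of which 11, 9, 4 and 11 were higher in the order above. Other alternatives moved the count by less than 1.5 times.

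Single members changed sign too. For high RVSP against control, leave-one-out differences ran from -0.27 to 1.26 for Foxj1 and from -0.0046 to 0.81 for Dynlrb2, and both had their lowest value also without control 1 and R899X normal RVSP 1. For all R899X mice against control Foxj1 ran from -0.13 to 1.39, and without both arrays it was -0.29, and -0.32 for normal RVSP against control. For high RVSP against normal RVSP the ranges were -0.59 to 0.054 for Foxj1, -0.52 to 0.0072 for Dnah5 and -0.044 to 0.15 for Tppp3. Tppp3 was -0.028 with median centring and -0.076 with the beta-actin covariate. Of 408 differences of named members over the alternatives, 14 changed sign. The cause of these changes was not tested. Over the alternatives and the 4 comparisons, all 67 recounts gave 0 member probe sets past the threshold in limma. Median centring shifted the median of all genes to 0.08 for normal RVSP against control and to -0.12 for high RVSP against normal RVSP. No paired analysis was possible because the replicate numbers follow accession order and the labels pair no mice.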

Other observations

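Among the axoneme genes with a RefSeq promoter that passed the low-value limit, 16 held an X-box arm and 12 did not. Control 1 was the lowest array for 11 of the 16 with the arm and for 11 of the 12 without it. The median difference of R899X high RVSP from control was 0.11 with the arm and 0.19 without it, and that of R899X normal RVSP from control was 0.25 with the arm and 0.30 without it.

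The sperm protamine Prm1, the 1 gene of 9 on a list of late germ cell genes that passed the limit, had intensities of 84.3 and 17.4 in R899X lungs with high RVSP, 66.4 and 107.7 in R899X lungs with normal RVSP, and 112 and 129 in the controls. Its low array was R899X high RVSP 2 and not control 1. Airway basal cell markers passed for 2 of 8 genes, with a mean deviation of 0.40 in control 1 against -0.24 to 0.07 on the other arrays. Neuroendocrine markers passed for 2 of 5 genes, with mean deviations between -0.22 in control 1 and 0.27 in control 2. The 2 genes differed, since Uchl1 was lowest in control 1 at 145. Syp read 134 in control 1 and between 99.8 and 159 on the other arrays.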
